A study of Rattus norvegicus with 9 samples.

Results

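Immediate early genes, many of them transcription factor genes, are switched on within minutes of a stimulus, without needing new protein first. Their transcripts usually decay soon after. The FOS, JUN and ATF proteins pair through leucine zippers to form AP-1 and related dimers, the EGR proteins bind GC-rich elements through zinc fingers, and NR4A1 is an orphan nuclear receptor. In bone and cartilage they are known as early responders to mechanical load, growth factors, parathyroid hormone and cytokines, and in skeletal muscle to contraction and injury. The set described here was chosen by symbol and comprised Fos, Fosb, Jun, Junb, Atf3, Egr1, Egr2, Egr3, Nr4a1 and Ier2, which gave 10 rows of the 31125 gene rows counted. Of the 10, 9 passed the low-count filter and were tested. Junb did not pass because it was listed at 0 in all 9 libraries.

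Bulk RNA came from whole femurs of male rats, all taken at day 7, with 3 libraries in each of 3 groups. GMTT rats had an injury of the distal femoral growth plate and received the GMTT hydrogel, whose parts the series title gives as GelMA, TPGS and tea polyphenols. GPI rats had the growth plate injury without the hydrogel, and Sham rats had sham surgery without injury. The sources used here do not give strain, age or pooling, and no group received a gel without the additives, so injury with gel is set against injury alone.

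Depth was even, at 15927429 to 19715997 counts per library, but composition was not, and it moved with the groups. The 24 skeletal muscle marker genes with a row, all of them with counts in every group, took 3.30 to 3.51% of the counts in GMTT, 17.2 to 17.6% in GPI and 0.355 to 0.374% in Sham. The 13 mitochondrially encoded genes took 6.05 ± 0.343% in GMTT, 26.2 ± 0.755% in GPI and 3.83 ± 0.185% in Sham (SD, n = 3 each). The 12 osteoblast and osteocyte markers were all detected and together took 1.52%, 0.525% and 1.14% of the counts in GMTT, GPI and Sham. The neutrophil and precursor markers took 1.5004% in GMTT, 0.000665% in GPI and 1.27% in Sham. Scaling factors between libraries followed this split, at 1.28 to 1.30 in GMTT, 0.600 to 0.604 in GPI and 1.28 to 1.29 in Sham, so a direction in a comparison with GPI can rest on the scaling. Comparisons of the 9 tested genes with GPI are therefore given also with library sizes only, that is, without a scaling factor. Normalised CPM below are a gene's share of its library's counts after TMM scaling, which aligns libraries on the genes that differ least, and adjusted p-values come from edgeR's quasi-likelihood test over all genes tested. Dropping the factor moved the median log2 fold change of all 15936 genes tested to -1.28 in place of -0.19 for GPI against Sham, and to 1.22 in place of 0.12 for GMTT against GPI. On the TMM scale, the 12 osteoblast and osteocyte markers did not move as one in GPI against Sham. Their log2 fold changes ran from -6.11 to 0.25, with 2 called higher and 10 called lower. In bulk RNA, fewer cells of a type and less RNA per cell cannot be told apart. The part that muscle content or cell makeup has in the values below was not tested.

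On the mRatBN7.2 build, the authors' table places the AP-1 and ATF genes Fos (ENSRNOG00000008015) at chr6:105121170-105124036, plus strand, Fosb (ENSRNOG00000046667) at chr1:78954115-78961465, minus strand, Jun (ENSRNOG00000026293) at chr5:109893145-109897656, minus strand and Atf3 (ENSRNOG00000003745) at chr13:102751321-102764631, minus strand. The EGR genes lie as follows: Egr1 (ENSRNOG00000019422) at chr18:26462981-26466766, plus strand, Egr2 (ENSRNOG00000000640) at chr20:21051277-21055562, minus strand and Egr3 (ENSRNOG00000017828) at chr15:45150567-45154627, plus strand. The remaining 2 tested genes are Nr4a1 (ENSRNOG00000007607) at chr7:132374840-132389297, plus strand and Ier2 (ENSRNOG00000067274) at chr19:23494184-23499211, plus strand. Counts are per whole gene model, so transcripts of a gene are not told apart.

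Promoters were at hand for 6 of the 10 genes, as RefSeq sequences of the GRCr8 build that run from 250 bases before to 50 bases after the annotated start. They are shown for Nr4a1, which was among the genes with the largest rise in GPI, for Egr1, which changed little, and for Ier2, which was lower in GPI. Capitals mark the CArG box, the element bound by serum response factor (CC, then 6 bases that are A or T, then GG), and TGACG on either strand, the core of the cAMP response element TGACGTCA bound by CREB and ATF proteins.
Nr4a1, chr7:134259888-134260187, plus strand: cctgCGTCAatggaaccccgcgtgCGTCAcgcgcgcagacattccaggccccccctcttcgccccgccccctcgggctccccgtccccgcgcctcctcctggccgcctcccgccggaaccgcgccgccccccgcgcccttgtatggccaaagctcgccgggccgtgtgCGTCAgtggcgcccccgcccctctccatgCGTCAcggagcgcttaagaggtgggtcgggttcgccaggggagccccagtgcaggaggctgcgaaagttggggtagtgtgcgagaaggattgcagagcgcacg
Egr1, chr18:26736828-26737127, plus strand: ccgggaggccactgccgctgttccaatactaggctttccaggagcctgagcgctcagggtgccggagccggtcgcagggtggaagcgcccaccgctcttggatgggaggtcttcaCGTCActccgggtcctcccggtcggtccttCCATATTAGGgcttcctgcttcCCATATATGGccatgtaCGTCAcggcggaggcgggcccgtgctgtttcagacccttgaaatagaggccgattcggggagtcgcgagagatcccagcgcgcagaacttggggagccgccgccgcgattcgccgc
Ier2, chr19:40399123-40399422, plus strand: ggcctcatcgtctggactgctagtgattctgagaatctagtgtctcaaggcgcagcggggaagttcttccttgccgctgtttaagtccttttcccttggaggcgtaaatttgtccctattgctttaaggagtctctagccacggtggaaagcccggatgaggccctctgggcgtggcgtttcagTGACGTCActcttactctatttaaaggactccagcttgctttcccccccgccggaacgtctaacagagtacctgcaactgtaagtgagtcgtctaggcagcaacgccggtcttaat
The Nr4a1 promoter holds 4 TGACG cores and no CArG box. The Egr1 promoter holds CArG boxes 105 and 83 bases upstream of the start, CCATATTAGG and CCATATATGG, flanked by TGACG cores 135 and 66 bases upstream. The Egr2 promoter holds 1 CArG box, CCATATATGG, at 83 bases upstream and 1 TGACG core at 66 bases, both at the same distance as in Egr1. Ier2 holds the full palindrome TGACGTCA 66 bases upstream, which contains the core on both strands. Among 33469 rat promoters of this length, 1.64% hold a CArG box, 1.83% hold TGACGTCA and 21.2% hold TGACG on either strand, against 2, 1 and 5 of the 6 promoters here. The AP-1 element TGANTCA, present in 7.33% of promoters, was in none of the 6, and the EGR element GCGNGGGCG, present in 4.98%, was in the Nr4a1 promoter alone. These matches describe letters only.

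In GPI femurs, 7 of the 9 tested genes were called higher than in Sham and 2 were called lower. Atf3, Nr4a1, Jun, Fosb and Fos rose between 8.57-fold and 91.0-fold on the TMM scale, and these 5 directions held with library sizes only. Egr3 and Ier2 fell on the TMM scale. Library sizes only lowers the values of all genes in this comparison, so it could not have turned these 2 falls. Egr2 was 2.52-fold and Egr1 1.51-fold higher on the TMM scale alone. All 9 were called at an adjusted p below 0.05, but so were 88.2% of all genes, so the number of calls is no result about these genes. Genes called higher made up 40.1% of all genes and genes called lower 48.1%. At least 2-fold higher were 6 of the 9, against 26.7% of all genes, 1 was at least 2-fold lower, against 31.6% of all genes, and the median log2 fold change of the 9 was 3.10, against -0.19 for all genes. The groups did not overlap for any of the 9 genes, and 88.3% of all genes had groups that did not overlap. With library sizes only, Egr1 turned and was lower in GPI (log2 fold change -0.50, adjusted p = 2.11e-06), Egr2 lost its call (0.24, adjusted p = 0.334), and the other 5 stayed higher by 2.01 to 5.41 on the log2 scale.

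**Figure D1:**
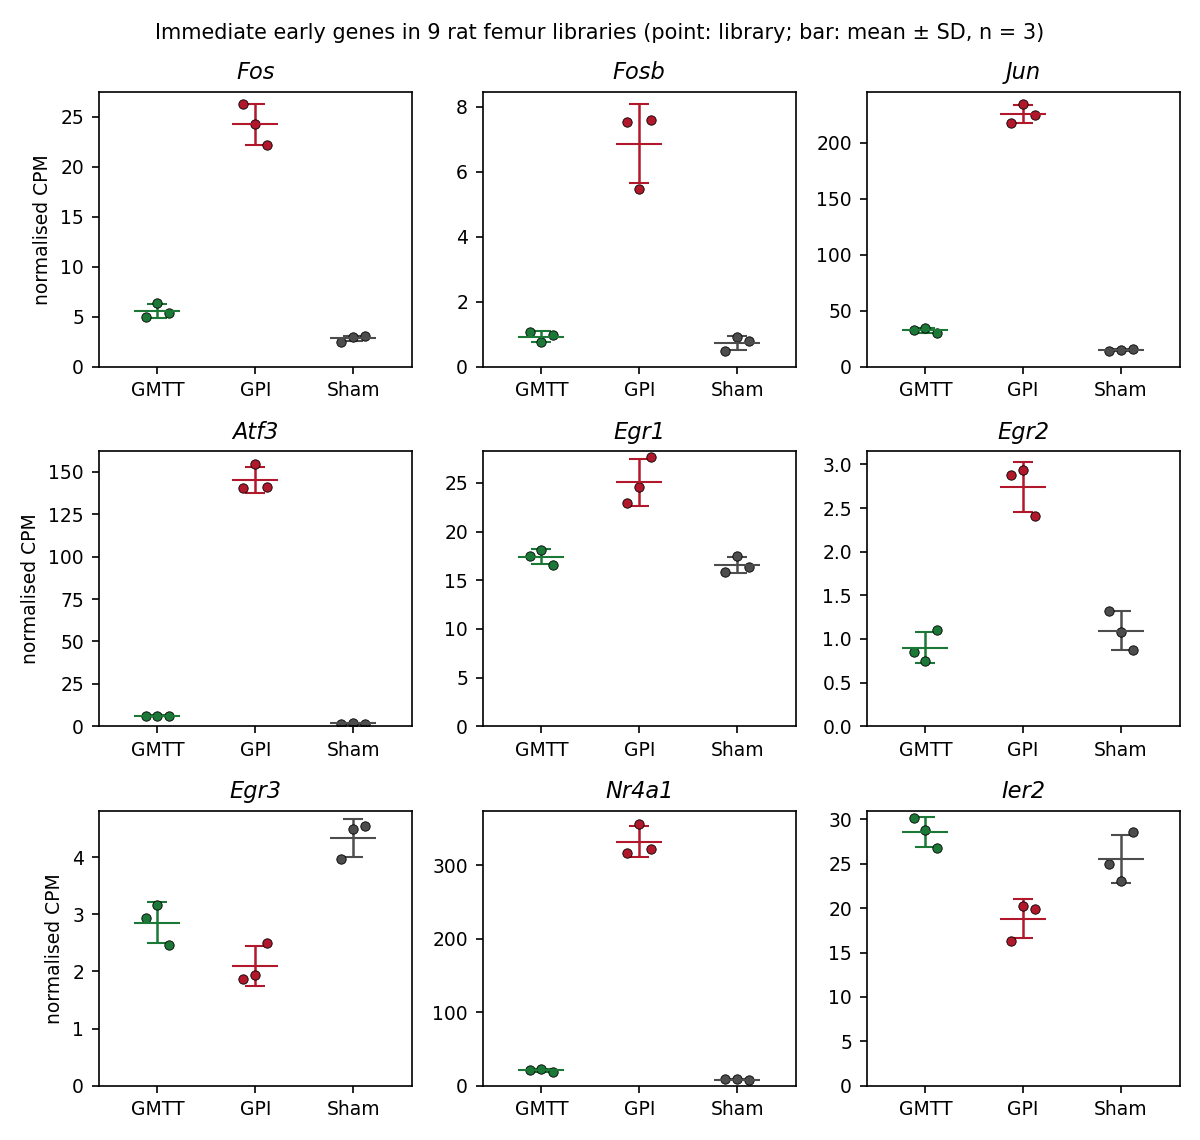
Normalised CPM (scaled by TMM, linear axes that start at 0) of the 9 tested genes in the GMTT, GPI and Sham libraries. Points are libraries and bars are the mean ± SD of 3. Fos, Fosb, Jun, Atf3, Egr1, Egr2 and Nr4a1 were highest in GPI, while Egr3 and Ier2 were lowest there, and the GMTT points of Egr3 reach into the GPI range.

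Among the AP-1 subunits, Fos, the partner that needs a JUN protein to bind DNA, was measured at 4.95, 6.37 and 5.35 normalised CPM in GMTT, 26.3, 24.3 and 22.2 in GPI, and 2.49, 2.94 and 3.03 in Sham. The 3 groups did not overlap, with GPI highest and Sham lowest. Fos rose in GPI against Sham by 3.10 ± 0.12 on the log2 scale (SE, adjusted p = 2.04e-21), and 9.24% of all genes had a higher fold change. Fosb, a FOS relative known for a long-lived splice form in neurons and bone, was sparse, with 17 to 25 counts per library in GMTT, 65 to 89 in GPI and 10 to 21 in Sham. It averaged 0.926 ± 0.163 normalised CPM in GMTT, 6.86 ± 1.22 in GPI and 0.726 ± 0.215 in Sham (SD, n = 3 each). GPI libraries were all above the others, while GMTT and Sham overlapped. Its log2 rise in GPI against Sham was 3.21 ± 0.22 (SE, adjusted p = 8.45e-15).

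Jun, which can also pair with itself and is the main partner of Fos, stood at 33.2, 34.4 and 29.6 normalised CPM in GMTT, 218, 234 and 225 in GPI, and 13.6, 14.8 and 16.1 in Sham. Its libraries were tight within each group and the groups were far apart. Jun rose 15.2-fold in GPI against Sham (log2 3.93, SE 0.07, adjusted p = 1.62e-31). Atf3, a stress-induced relative that represses or activates depending on its partner, was measured at 6.27, 5.80 and 6.23 normalised CPM in GMTT, 140.4, 154 and 141 in GPI, and 1.47, 2.12 and 1.15 in Sham. It had the largest change of the set, 91.0-fold higher in GPI than in Sham (log2 6.51, SE 0.10, adjusted p = 1.06e-32), and only 1.36% of all genes had a higher fold change. Its Sham level rests on 25 to 49 counts per library.

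Junb, a JUN relative with weaker transactivation, could not be followed. Its row is a gene model typed as a pseudogene (mRatBN7.2 chr19:23176294-23178035, plus strand), which lies over all of its 1742 bases inside a long noncoding RNA model on the opposite strand, ENSRNOG00000065682. That model held 22 counts in GMTT, 18 in GPI and 24 in Sham, each summed over 3 libraries. A count of 0 allows up to 3 counts per library, which is 0.128 to 0.132 normalised CPM in GMTT, 0.252 to 0.289 in GPI and 0.130 to 0.147 in Sham, counting error only. Mapk3, the ERK1 kinase gene that most cells use, and Egr4 were also listed at 0 throughout, so a 0 in this table was not read as absent expression. No other gene of the set had an overlapping model.

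Of the EGR genes, Egr1, the most widely induced member, measured 17.5, 18.1 and 16.6 normalised CPM in GMTT, 22.9, 24.6 and 27.6 in GPI, and 15.8, 17.4 and 16.4 in Sham. GPI libraries were above the others, and GMTT and Sham overlapped. Its rise in GPI against Sham was 0.59 ± 0.08 on the log2 scale (SE, adjusted p = 1.18e-07) and turned to -0.50 with library sizes only, so no direction that holds on both scales can be given. Egr2, known from mice for its part in myelination and T cell restraint, was near the lower end of detection, with 17 to 35 counts per library. It averaged 0.899 ± 0.179 normalised CPM in GMTT, 2.74 ± 0.291 in GPI and 1.09 ± 0.224 in Sham (SD, n = 3 each), and its log2 rise of 1.33 ± 0.24 in GPI against Sham (SE, adjusted p = 7.72e-06) was not called with library sizes only.

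Egr3, known from mice for its part in muscle spindle development, went the other way. It measured 2.94, 3.16 and 2.46 normalised CPM in GMTT, 1.86, 1.93 and 2.50 in GPI, and 3.96, 4.501 and 4.55 in Sham. All 3 Sham libraries were above all others, while GMTT and GPI overlapped. Egr3 fell 2.08-fold in GPI against Sham (log2 -1.06, SE 0.19, adjusted p = 6.83e-06), and with library sizes only the log2 value was -2.15. On the TMM scale, Egr3 was thus opposite in direction to Egr1 and Egr2 in this comparison.

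Nr4a1, the nuclear receptor induced by stress and contraction, had the highest level of the set in GPI, at 317, 356 and 322 normalised CPM, against 8.56, 8.40 and 7.90 in Sham. GMTT libraries lay between, at 21.6, 22.3 and 19.0, and no groups overlapped. It rose 40.04-fold in GPI against Sham (log2 5.32, SE 0.07, adjusted p = 2.64e-34), a fold change exceeded by 3.33% of all genes. Ier2, a small nuclear protein that acts as a transcriptional regulator, measured 30.2, 28.8 and 26.8 normalised CPM in GMTT, 16.3, 20.2 and 19.9 in GPI, and 24.99, 23.1 and 28.5 in Sham. GPI libraries were below all others. Ier2 fell by 0.44 on the log2 scale in GPI against Sham (SE 0.09, adjusted p = 5.36e-05), which is 1.36-fold, and 44.1% of all genes had a lower fold change. With library sizes only the value was -1.53, where the median of all genes was -1.28.

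In GMTT femurs, set against GPI, the pattern turned: 7 of the 9 genes were called lower and 2 were called higher. This comparison and the one before share the GPI libraries, so the mirrored directions are not separate evidence. All genes called amounted to 85.9% of those tested, with 45.7% higher and 40.2% lower. At least 2-fold lower were 6 of the 9, against 24.4% of all genes, none was at least 2-fold higher, against 28.6% of all genes, and the median log2 fold change was -2.13, against 0.12 for all genes. Groups did not overlap for 8 of the 9 genes, against 86.2% of all genes, the exception being Egr3.

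Atf3 fell 23.8-fold in GMTT against GPI (log2 -4.57, SE 0.08, adjusted p = 6.2e-31) and Nr4a1 fell 15.8-fold (log2 -3.98, SE 0.06, adjusted p = 4.29e-32). Only 0.489% of all genes had a lower fold change than Atf3. Fosb fell 7.33-fold, Jun 6.96-fold and Fos 4.38-fold, with adjusted p-values of 3.88e-14, 1.76e-28 and 2.58e-18. These 5 genes were also lower with library sizes only, by log2 values of -3.47 for Atf3, -2.88 for Nr4a1, -1.77 for Fosb, -1.70 for Jun and -1.03 for Fos. Egr2 fell 3.05-fold (log2 -1.61, SE 0.25, adjusted p = 5.77e-07) but missed the threshold with library sizes only (-0.51, adjusted p = 0.0548). Egr1 fell 1.43-fold (log2 -0.52, SE 0.08, adjusted p = 1.04e-06) and was higher, by 0.58, with library sizes only.

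Ier2 was higher in GMTT than in GPI, by 0.60 ± 0.09 on the log2 scale (SE, adjusted p = 3.26e-07). With library sizes only the value was 1.71, where the median of all genes was 1.22. Egr3 was called higher by 0.45 ± 0.20 (SE, adjusted p = 0.0391), but this call was not steady. It was lost with median-of-ratios scaling (adjusted p = 0.0513) and with DESeq2 (adjusted p = 0.109), and without GMTT replicate 1 (0.0709), GMTT replicate 2 (0.114), GPI replicate 1 (0.133) or GPI replicate 2 (0.114). With library sizes only it was called and larger, at a log2 value of 1.55 (adjusted p = 1.09e-08). That setting raises the values of all genes in this comparison, so it could not have turned the direction of Egr3. Under the other alternatives the direction was also higher in GMTT, but the size and the call depend on the scaling.

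**Figure D2:**
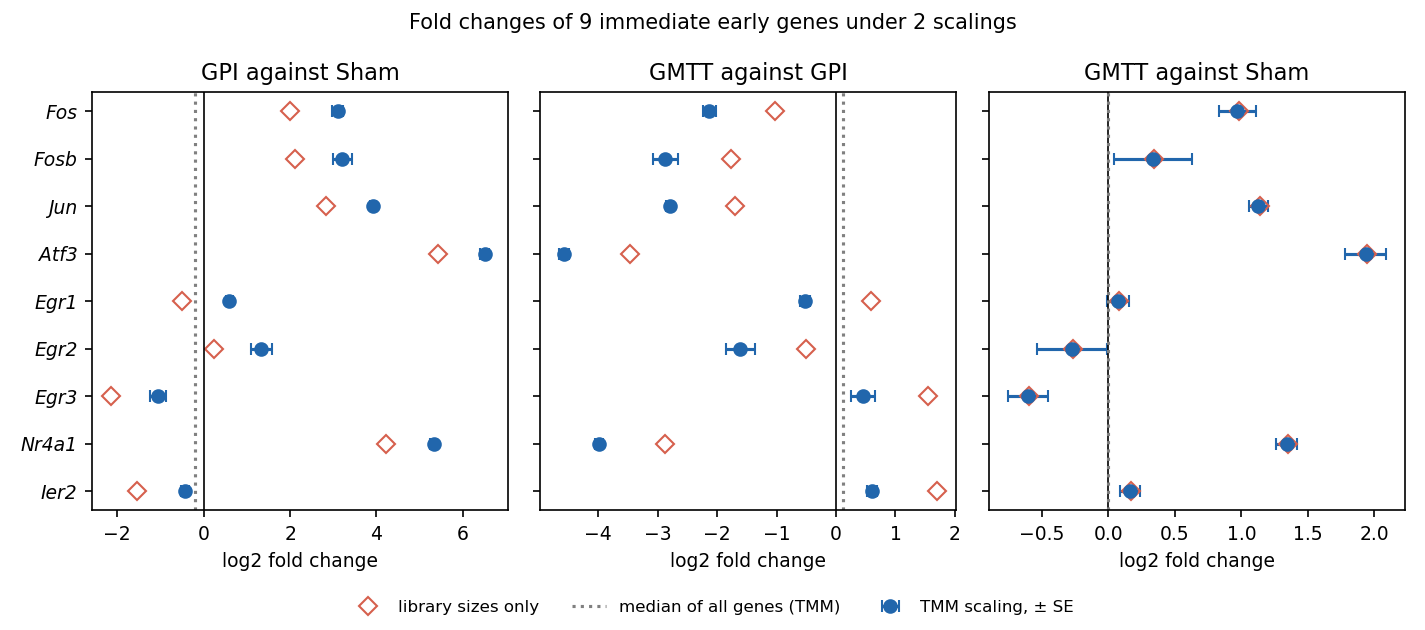
Log2 fold changes ± SE of the 9 tested genes in the 3 comparisons, with TMM scaling and with library sizes only. Atf3, Nr4a1, Jun, Fosb and Fos keep their direction on both scales in comparisons with GPI, Egr1 changes sign between scales, and GMTT against Sham hardly depends on the scaling.

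GMTT against Sham was the comparison least touched by the scaling, since TMM factors of both groups lay between 1.28 and 1.30. Atf3, Nr4a1, Jun and Fos were called higher in GMTT, Egr3 was called lower, and Fosb, Egr1, Egr2 and Ier2 were not called. Of all genes 57.8% were called, 29.5% higher and 28.3% lower, so 5 of 9 called is near the background. Groups did not overlap for 5 of the 9 genes, against 61.7% of all genes. At least 2-fold higher were 3 of the 9, against 9.19% of all genes, none was at least 2-fold lower, against 2.44% of all genes, and the median log2 fold change was 0.33, against 0 for all genes to 2 decimals.

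Atf3 rose 3.82-fold in GMTT against Sham (log2 1.93, SE 0.15, adjusted p = 1.6e-12), Nr4a1 2.53-fold (log2 1.34, SE 0.08, adjusted p = 3.41e-15), Jun 2.19-fold (log2 1.13, SE 0.07, adjusted p = 9e-15) and Fos 1.96-fold (log2 0.97, SE 0.14, adjusted p = 6.13e-07). All 4 kept a similar size with library sizes only, at log2 values of 1.94, 1.35, 1.14 and 0.98. Egr3 fell 1.52-fold (SE 0.15 on the log2 scale, adjusted p = 0.00103). Fosb differed by 0.33 ± 0.29 on the log2 scale (adjusted p = 0.339), Egr1 by 0.07 ± 0.08 (adjusted p = 0.454), Egr2 by -0.27 ± 0.26 (adjusted p = 0.383) and Ier2 by 0.16 ± 0.08 (adjusted p = 0.075), each with its SE. All 24 skeletal muscle markers were called higher in GMTT than in Sham, with a median log2 fold change of 3.11. Their median was 6.44 in GPI against Sham and -3.38 in GMTT against GPI, with 24 of 24 called higher and 24 of 24 called lower. Other marker lists differed between GMTT and Sham too. All 10 fibroblast and tendon markers (median 1.66) and all 13 mitochondrially encoded genes (0.67) were called higher. All 15 erythroid markers were called lower (-0.89). A link of any list to the immediate early genes was not tested.

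The makeup of the set within a library does not depend on scaling, because the scaling factor cancels. Per gene length (FPKM), the 10 genes summed to 35.1, 36.0 and 32.3 in GMTT, 271, 296 and 277 in GPI and 20.0, 21.3 and 21.4 in Sham. Junb, which could not be followed, enters as 0, so the shares below are in effect shares among the 9 tested genes. The sums themselves, unlike shares of them, do carry the scaling between libraries. As a share of all counts, without a scaling factor, the set took 0.0150% in GMTT, 0.0471% in GPI and 0.00973% in Sham. Nr4a1, Atf3 and Jun together made up 52.9 ± 0.603% of the summed FPKM in GMTT, 89.2 ± 0.588% in GPI and 33.8 ± 1.19% in Sham (SD, n = 3 each). Egr1 and Ier2 together made up 32.7 ± 0.598% in GMTT, 4.19 ± 0.406% in GPI and 48.6 ± 1.40% in Sham. Atf3 alone held 9.35% in GMTT, 27.2% in GPI and 3.90% in Sham, and Nr4a1 held 22.8%, 44.2% and 14.6% in those groups. Jun was the steadiest of the large contributors, with 20.8% in GMTT, 17.8% in GPI and 15.3% in Sham.

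**Figure D3:**
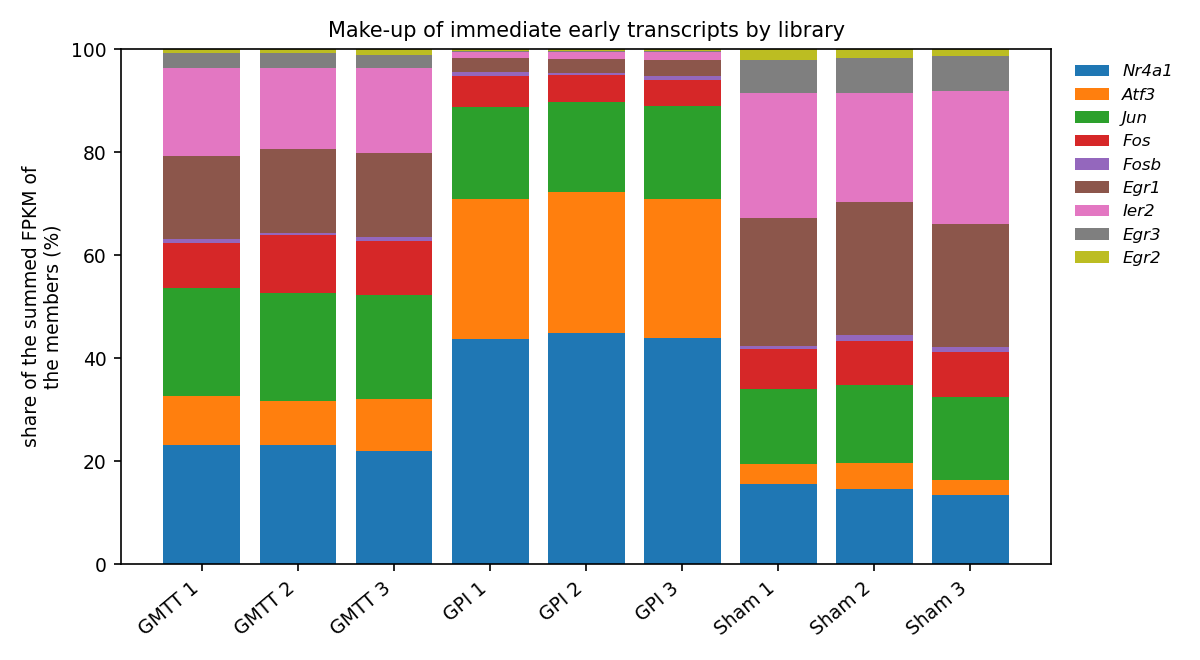
Share of each tested gene in the summed FPKM of the 10 genes, in percent, for each library of GMTT, GPI and Sham. Junb could not be followed and enters the sum as 0. Nr4a1, Atf3 and Jun fill 89.2% of the bars on average in GPI, 52.9% in GMTT and 33.8% in Sham, and libraries of a group look alike.

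The order of levels, on the FPKM scale, differed between groups. In GMTT, Nr4a1 (7.86) and Jun (7.17) led and overlapped, followed by Ier2 (5.67) and Egr1 (5.58), then Fos (3.49) and Atf3 (3.21), then Egr3 (0.943), and last Egr2 (0.303) and Fosb (0.247), with overlap in each of these pairs. In GPI the order was Nr4a1 (124), Atf3 (76.5), Jun (49.9), Fos (15.2), Egr1 (8.03), Ier2 (3.74), Fosb (1.83), Egr2 (0.924) and Egr3 (0.694), and only the last pair overlapped. In Sham, Egr1 (5.19) and Ier2 (4.96) led and overlapped, followed by Jun (3.21) and Nr4a1 (3.04), which overlapped too, then Fos (1.74), Egr3 (1.40), Atf3 (0.815), Egr2 (0.361) and Fosb (0.190).

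The log2 ratio of Fos to Jun in FPKM, which is free of the scaling factor, averaged -1.04 ± 0.17 in GMTT, -1.71 ± 0.15 in GPI and -0.89 ± 0.06 in Sham (SD, n = 3 each). It was lower in every GPI library than in every library of the other groups. A 2-sided exact permutation test gave p = 0.1 for GPI minus Sham (difference -0.83) and for GMTT minus GPI (0.67), the smallest p that 3 against 3 libraries allow, and p = 0.2 for GMTT minus Sham (-0.16). Adjusted over the 3 comparisons these were 0.15, 0.15 and 0.2. With this many libraries the test cannot reach 0.05, so the ratios are a description.

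Spread between libraries of a group was small beside the large changes. The coefficient of variation of the 9 genes ran from 4.29 to 20.0% in GMTT, from 3.69 to 17.7% in GPI and from 4.11 to 31.4% in Sham. The most variable values belonged to the sparse genes, with Atf3 at 31.4% in Sham, where it had 104 counts in all, and Fosb at 29.6%, where it had 48. No library was above its group mean for all 9 genes: the number above the mean ranged from 2 genes in Sham replicate 1 to 7 in GMTT replicate 1 and in Sham replicate 2.

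The values of other named genes below are on the TMM scale unless stated. For 35 such genes, library sizes only moved the log2 value down by 0.99 to 1.09 in GPI against Sham and up by 1.06 to 1.10 in GMTT against GPI. That ended or reversed a call, or made one, in a comparison with GPI for Fosl1, Jund, Nr4a2, Srf, Nab1, Nab2 and Zfp36, and for none of the other 28. Over all genes, library sizes only gave 22.1% called higher and 70.3% lower in GPI against Sham, and 72.2% higher and 18.9% lower in GMTT against GPI, the shares against which the counts of lists on that scale are to be read. On the TMM scale these shares were 40.1% and 48.1%, and 45.7% and 40.2%.

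Among the closest relatives, Nr4a3, a nuclear receptor of the same family as Nr4a1, measured 3.37, 2.72 and 2.50 normalised CPM in GMTT, 186, 175 and 187 in GPI, and 0.587, 0.693 and 0.689 in Sham. That is a log2 rise of 8.10 ± 0.10 in GPI against Sham (SE), above that of every gene of the set, a fall of 5.99 in GMTT against GPI, and a rise of 2.11 ± 0.20 in GMTT against Sham, with all 3 called. Nr4a2, the third receptor of the family, averaged 2.94 ± 0.186 normalised CPM in GMTT, 6.55 ± 0.937 in GPI and 2.80 ± 0.430 in Sham, and its rise of 1.22 in GPI against Sham was not called with library sizes only (0.12). Among FOS and JUN relatives, Fosl1 averaged 3.08, 3.16 and 3.35 normalised CPM in GMTT, GPI and Sham and was called in no comparison on the TMM scale, but was lower in GPI than in Sham by 1.16 (log2) with library sizes only. Fosl2, prominent in bone cells, averaged 41.0 ± 3.54 in GMTT, 22.2 ± 1.57 in GPI and 27.5 ± 1.52 in Sham, and it was called higher in GMTT against GPI (log2 0.88, SE 0.08, or 1.99 with library sizes only) and against Sham (0.57, SE 0.07). Jund, the most constitutive JUN gene, was higher in GPI than in Sham by 0.43 ± 0.07 on the TMM scale and lower by 0.66 with library sizes only.

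Of 19 other AP-1 and leucine zipper relatives tested, 7 were called higher, 10 lower and 2 were not called in GPI against Sham, close to the shares of 40.1% and 48.1% over all genes. Their median log2 fold change was -0.31, against -0.19 for all genes. With library sizes only 4 were higher and 15 lower, where 22.1% and 70.3% of all genes were. Maff, a small MAF protein, averaged 16.1 ± 1.27 normalised CPM in GPI against 1.31 ± 0.364 in Sham (log2 3.61, SE 0.16), and Nfil3, a repressor that binds ATF sites, 103 ± 5.16 against 13.7 ± 0.568 (log2 2.90, SE 0.07). At the other end, Batf, an AP-1 partner of lymphoid and myeloid cells, held 5 counts over the GPI libraries and 222 over the Sham libraries (log2 -4.47, SE 0.39). In GMTT against GPI the list counted 11 higher and 6 lower, where 45.7% and 40.2% of all genes were called. With library sizes only it counted 15 higher and 3 lower, where 72.2% and 18.9% of all genes were called. In GMTT against Sham it counted 7 higher and 7 lower, where 29.5% and 28.3% of all genes were called.

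Of 31 other immediate early genes tested, 20 were called higher and 9 lower in GPI against Sham, where 40.1% and 48.1% of all genes were. Their median log2 fold change was 0.98, and with library sizes only 12 were higher and 14 lower, where 22.1% and 70.3% of all genes were. Gadd45g, a stress-response gene, rose by 4.45 ± 0.09 on the log2 scale, whereas Pim1, a cytokine-induced kinase, fell by 4.34 ± 0.11 and Btg1, an antiproliferative gene, fell by 2.51 ± 0.06. In GMTT against GPI 8 were higher and 19 lower, where 45.7% and 40.2% of all genes were. With library sizes only 17 were higher and 10 lower, where 72.2% and 18.9% of all genes were. In GMTT against Sham 16 were higher and 7 lower, with a median of 0.39, where 29.5% and 28.3% of all genes were called. Of 13 cytosolic heat shock genes, 8 were called higher and 4 lower in GPI against Sham, where 40.1% and 48.1% of all genes were. With library sizes only 5 were higher and 8 lower, where 22.1% and 70.3% of all genes were. Hspb8 and Hspb1, small heat shock proteins abundant in muscle, rose by 6.49 and 5.99 on the log2 scale, while the chaperone genes Dnajb1 and Hsp90aa1 fell by 2.15 and 1.42.

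Upstream of the set, serum response factor and its ternary complex partners drive CArG boxes downstream of MAP kinases. Srf averaged 59.9 ± 3.35 normalised CPM in GMTT, 109 ± 4.13 in GPI and 47.2 ± 1.64 in Sham, a log2 rise of 1.21 ± 0.06 in GPI against Sham that was 0.12 and not called with library sizes only. Of the 8 genes of this route, 5 were called higher and 2 lower in GPI against Sham, where 40.1% and 48.1% of all genes were. With library sizes only 4 were higher and 3 lower, where 22.1% and 70.3% of all genes were. In GMTT against Sham, 6 were called higher and none lower, where 29.5% and 28.3% of all genes were. Elk1, a ternary complex factor, rose by 2.25 ± 0.06 and Myocd, the cardiac and smooth muscle coactivator of SRF, by 6.04 ± 0.24 in GPI against Sham, whereas the coactivator gene Mrtfa fell by 0.28 and the ternary complex factor gene Elk4 by 0.46, or by 1.38 and 1.55 with library sizes only. Of 20 MAP kinase and upstream kinase genes, 15 were called higher and 4 lower in GPI against Sham, where 40.1% and 48.1% of all genes were, and 6 higher and 9 lower with library sizes only, where 22.1% and 70.3% of all genes were. Mapk12, the p38 isoform rich in skeletal muscle, rose by 5.26 ± 0.08 and Map2k6, a p38 activator, by 3.60 ± 0.08, while the p38 isoform gene Mapk13 fell by 5.22 ± 0.28 and the ribosomal S6 kinase gene Rps6ka1 by 4.71 ± 0.09.

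Of 18 feedback inhibitor genes, 11 were called higher and 4 lower in GPI against Sham, and 5 higher and 9 lower with library sizes only, to be read against the same shares. Dusp8 and Dusp16, phosphatases that act on JNK and p38, rose by 4.59 and 3.06 on the log2 scale, and Dusp2 and Dusp5, phosphatases that act on ERK, fell by 4.70 and 1.74. Nab1 and Nab2, which bind and repress EGR proteins, averaged 29.9 ± 1.00 and 9.74 ± 1.98 normalised CPM in GPI, against 28.4 ± 0.347 and 8.74 ± 0.660 in Sham, and neither was called on the TMM scale, while with library sizes only both were called lower (log2 -1.02 and -0.94). Zfp36, which speeds decay of AU-rich transcripts, rose by 1.05 ± 0.07, and was not called with library sizes only (-0.04). Of 19 feedback inhibitor genes listed, 18 had a row under their symbol. Dusp1 was among the genes meant to be named, but there are no values for it here.

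Of 19 textbook targets of AP-1 and EGR factors, 8 were called higher and 9 lower in GPI against Sham, close to the shares of 40.1% and 48.1% over all genes, with a median log2 fold change of -0.03. With library sizes only 7 were higher and 11 lower, where 22.1% and 70.3% of all genes were. On both scales the higher genes include Mmp3, which had almost no counts in GPI and Sham. It passed the low-count filter through GMTT, so its call in this comparison is no result. Vegfa, the angiogenic factor, averaged 55.9 ± 0.686 normalised CPM in GMTT, 701 ± 4.51 in GPI and 25.9 ± 0.883 in Sham. The collagenase gene Mmp13, a marker of hypertrophic cartilage and bone, averaged 309 ± 21.8 in GMTT, 5.03 ± 1.04 in GPI and 321 ± 12.9 in Sham, and Mmp9, the gelatinase of osteoclasts and neutrophils, 311 ± 16.2, 1.37 ± 0.584 and 232 ± 10.5. Both were lower in GPI than in Sham, and Vegfa was higher there. A link of these targets to the Fos and Jun transcripts was not tested. In GMTT against Sham, 15 of 19 targets were called higher and 2 lower, where 29.5% and 28.3% of all genes were. The median log2 fold change of the 19 was 0.42. The 15 include Mmp3, which was tested only because of its GMTT counts, so its call is no separate result here either.

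**Figure D4:**
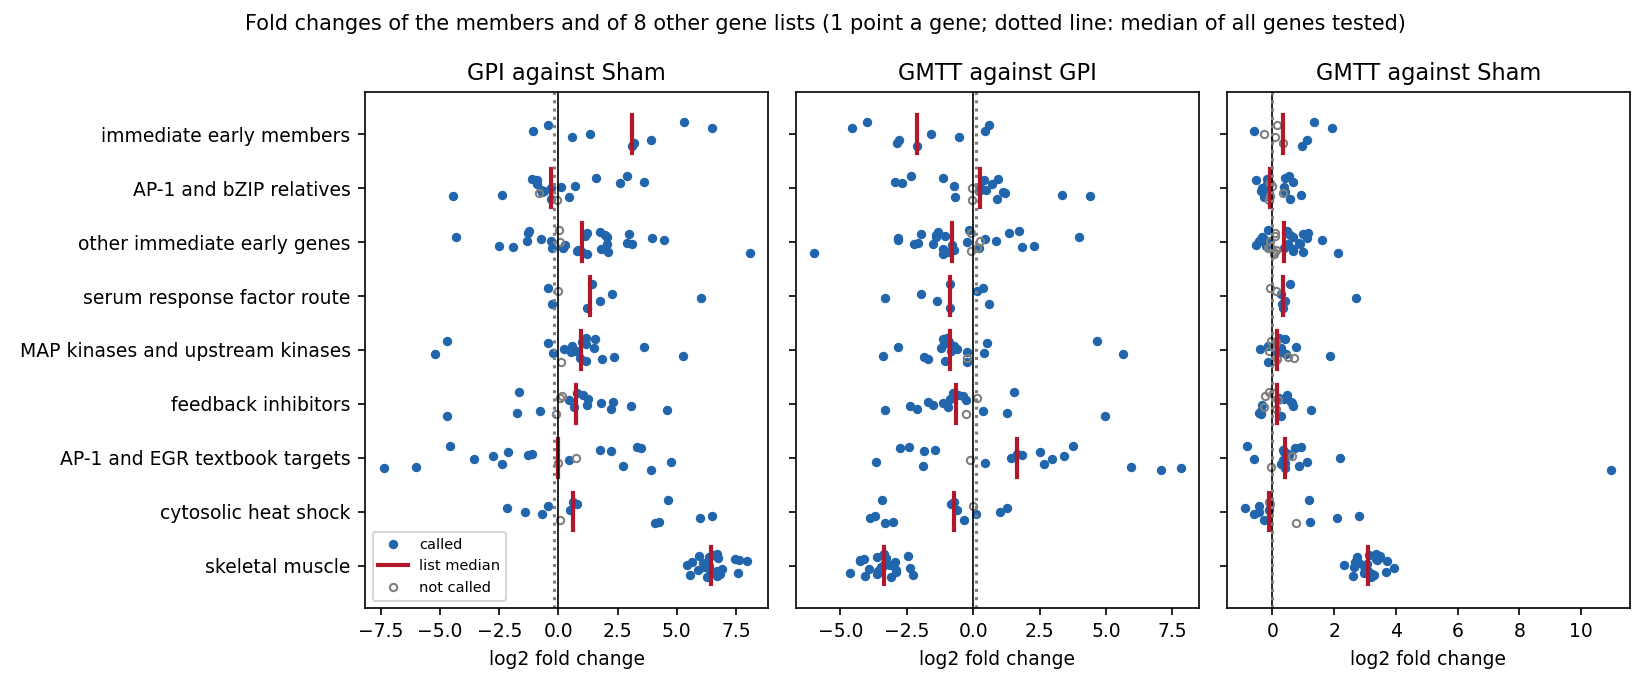
Log2 fold changes of single genes, as points, for the immediate early genes ("immediate early members") and 8 other lists in the 3 comparisons, with list medians and the median of all genes tested. Medians of the immediate early genes were 3.10 in GPI against Sham and -2.13 in GMTT against GPI, and those of the skeletal muscle markers 6.44 and -3.38. The lone point far right in GMTT against Sham is Mmp3, with 3061 counts over the GMTT libraries and 1 over the Sham libraries.

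The genes most like the mean log2 profile of the 9 tested genes were sought among 9710 genes whose mean log2 CPM was 3 or more, by Pearson's r over the 9 libraries. They were Dcun1d2 (r = 0.9998), Smad3 (0.9996), Acvrl1 (0.9995), Mrps36 (0.9994) and the long noncoding RNA ENSRNOG00000065676 (0.9994). With 3 groups this far apart such values are common, since 965 genes reached at least 0.99 and 3158 reached at least 0.9, and the points share their libraries and scaling. Smad3, a signal transducer of TGF-beta, averaged 21.9 normalised CPM in GMTT, 167 in GPI and 12.6 in Sham. Dcun1d2, a cullin neddylation gene, averaged 18.4, 147 and 10.0.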

How the data were processed

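RNA-seq of 9 rat femur libraries was used. Per the labels' protocols, libraries were stranded (dUTP) and made from poly(A)-selected RNA. Per the submitters' processing notes, mRatBN7.2 served as genome build. Aligner, counting program and its strand setting: not given in the sources used here. The authors deposited raw read counts and a table of FPKM. The deposited FPKM equal the count divided by gene length and by a library constant, which was 0.598 to 0.608 of the library total in GPI and 1.29 to 1.32 in the other groups, so FPKM is already scaled between libraries.

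Counts were tested with edgeR 4.0.16 in R 4.3.3: quasi-likelihood F test, 2-sided, robust, TMM scaling, all 9 libraries in 1 model of 3 groups, low-count filter with a minimum count of 10 (15936 genes left). Calls needed an adjusted p (Benjamini-Hochberg, over all of these) below 0.05. The SE was derived from the F statistic. Fold changes are log2, group values are mean ± SD, and normalised CPM are TMM-scaled. The steps were tested on simulated data in which few genes changed, as many up as down. That test does not cover the scaling between groups as unlike as these. Nothing says that libraries came from separate animals beyond the labels' n of 3, so p-values measure the spread between libraries; within groups r was 0.991 to 0.995 and counts differed by more than sampling noise.

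The members and gene lists were chosen with earlier results of these data known. Genes named were the members, their nearest relatives and regulators, the 2 highest and 2 lowest called genes of each list in GPI against Sham (Batf2 and Mmp3, with 2 counts in GPI and 1 in Sham, have no fold change printed), and the 5 most alike genes. Alternatives used DESeq2 1.42.0, and limma 3.58.1 on log2(FPKM + 1) and log2(FPKM + 0.1). Figures used matplotlib 3.10.9 and the permutation test scipy 1.17.1.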

Additional observations from a re-analysis of the deposited data

How the results depend on the processing

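Of 507 fold changes of single genes recomputed under alternatives, 491 kept direction and side of the threshold, 10 lost a call, 4 gained one (all Ier2 in GMTT against Sham) and 2 reversed. Both reversals were Egr1 with library sizes only, -0.50 in GPI against Sham and 0.58 in GMTT against GPI, where removal of the scaling factor shifts all genes. Egr2 and Egr3 supplied the lost calls, all in comparisons with GPI. The number called higher in GMTT against GPI was 1, with Egr3 lost, under median-of-ratios scaling, under scaling without mitochondrially encoded, muscle and erythroid genes, under DESeq2 and with at least 5 CPM in 3 libraries, and it ran from 1 to 2 without single replicates. Without single replicates the other counts were 7 higher and 2 lower in GPI against Sham, 7 lower in GMTT against GPI, and 4 to 5 higher and 1 lower in GMTT against Sham. Shares taken from counts, not divided by gene length, were 51.4% in GMTT, 89.8% in GPI and 32.6% in Sham for Nr4a1, Atf3 and Jun, and 39.8%, 5.61% and 55.6% for Egr1 and Ier2. With the replicate block, 13960 genes were called in GPI against Sham, 13574 in GMTT against GPI and 8815 in GMTT against Sham, beside 14049, 13685 and 9217 without it, and the counts of immediate early genes called did not change. Deviations of same-numbered libraries correlated from -0.497 to 0.170, and of differently numbered ones from -0.340 to 0.479, so no pairing by number was seen. Deviations from means of 3 libraries depend on each other, so this check cannot exclude a pairing. Depth limits Fosb and Egr2, which had under 40 counts in most libraries.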
